A study of Homo sapiens with 78 samples.

Results

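The genes TRAF1, TRAF2, TRAF3, TRAF4, TRAF5 and TRAF6 encode the tumor necrosis factor (TNF) receptor-associated factors, a family of adaptor proteins. The 6 members were chosen by gene symbol, from 19652 genes listed, and all 6 passed the filter on low values that left 13327 genes for testing. Their mRNA was measured by poly(A) RNA sequencing in wild-type A549 cells, an established human lung carcinoma epithelial line with features of alveolar type II cells. After a night in serum-free medium, cells were not stimulated (NS) or received the inflammatory cytokine interleukin-1β (IL-1β) at 1 ng/ml, the inhaled glucocorticoid budesonide at 300 nM, or IL-1β-plus-budesonide (cotreatment), for 1, 2, 6, 12 or 24 h. These 20 groups held 78 libraries, 4 per group except NS at 6 h and cotreatment at 12 h, which held 3 each; libraries are numbered as in the labels. The libraries came from independent experiments, and the labels do not tie each library to its experiment. Per the labels the 12 h cells came from fewer experiments than the other times, although 3 of the 4 groups at 12 h held 4 libraries. Libraries of the same group at 12 h may thus share an experiment, while the tests below treat them as independent.

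TRAF proteins bind the cytoplasmic tails of TNF receptor family members such as CD40, or join receptors for IL-1 and Toll-like receptor ligands through MyD88 and IRAK kinases. They carry a C-terminal TRAF domain for binding, and apart from TRAF1 an N-terminal RING domain. Assembled TRAFs recruit ubiquitin-modifying enzymes and kinases, among them TAK1 and the IκB kinases, which lead to nuclear factor-κB (NF-κB) and mitogen-activated protein kinases. IL-1β signals in this way, and budesonide acts through the glucocorticoid receptor (GR), a transcription factor that represses many inflammatory genes.

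The files give values in normalized TPM (a measure of transcript abundance), which are corrected for transcript length, so levels of different genes can be compared. The epithelial markers KRT8, KRT18, KRT19, EPCAM and CDH1 were all detected, at a summed 2181 to 15271 TPM. Of 8 alveolar type II markers 5 were detected, and the surfactant genes SFTPA1, SFTPA2 and SFTPB were not (at least 1 TPM in at least 3 libraries was required). Among those 5, ABCA3 lay between 7.85 and 15.7 TPM and NAPSA had a median of 1.40 TPM. The medians of SFTPC, SFTPD and LAMP3 were 0.195, 0.633 and 0.132 TPM, and their highest values were 1.64, 38.6 and 5.77 TPM. Of 7 immune cell markers only CD14 and ITGAM were detected, CD3E and MS4A1 stood at 0 in every library, and PTPRC was at most 0.710 TPM. Of 5 fibroblast markers 3 were detected and of 4 endothelial markers 1, at summed levels of at most 20.2 and 2.05 TPM. Mitochondrially encoded genes took 11.8% to 17.2% of the TPM. In 5 libraries (IL-1β at 24 h library 2, budesonide at 12 h library 2 and at 2 h library 3, cotreatment at 12 h library 2 and at 1 h library 4) the distance from the other libraries of the group was 0.489 to 0.703 on the log2 scale, against at most 0.443 in the other 73. Calls that changed without these 5 are named below.

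TRAF1 is on chromosome 9 (GRCh38, 120902393 to 120929173, minus strand) and TRAF2 on the plus strand of the same chromosome (136881912 to 136926607). TRAF3 is on chromosome 14 (102777449 to 102911500), TRAF4 on chromosome 17 (28744011 to 28750956) and TRAF5 on chromosome 1 (211326615 to 211374946), all on the plus strand, and TRAF6 is on the minus strand of chromosome 11 (36483769 to 36510272). Values are per gene, so exons, introns and single transcripts were not told apart, and 2 long noncoding RNA genes lie on the strand opposite to TRAF4. The 250 bases before the annotated start of TRAF1, the member with the largest response, and of TRAF3, the member with a match to an NF-κB motif, are shown from RefSeq promoters (GRCh38.p14), 5′ to 3′ on the strand of the gene (chr9:120929172-120929421, minus, and chr14:102777199-102777448, plus), with the match in capitals.
TRAF1: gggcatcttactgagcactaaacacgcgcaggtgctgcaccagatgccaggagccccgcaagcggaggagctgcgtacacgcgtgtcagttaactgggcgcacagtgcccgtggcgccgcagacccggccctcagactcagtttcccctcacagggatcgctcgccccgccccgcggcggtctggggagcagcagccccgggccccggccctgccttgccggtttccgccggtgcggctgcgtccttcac
TRAF3: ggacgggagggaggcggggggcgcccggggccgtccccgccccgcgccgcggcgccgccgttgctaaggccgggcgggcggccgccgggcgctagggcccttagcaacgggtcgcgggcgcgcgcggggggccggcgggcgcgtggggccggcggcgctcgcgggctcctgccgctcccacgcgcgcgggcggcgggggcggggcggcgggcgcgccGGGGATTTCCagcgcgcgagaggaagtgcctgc
RefSeq gave 10 promoter windows of 300 bases for the 6 genes, and the NF-κB consensus matched on either strand in 1 of them, that of TRAF3, with its first base 33 bases before the start. Of all 35116 promoters 5.91% held such a match. The GR consensus, with at most 2 mismatches, matched in 0 of the 10 windows and in 1.41% of all promoters. A match describes these letters only, and sites elsewhere in the genes were not searched.

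TRAF4 was the most abundant member in most groups. Over the 19 NS libraries it lay between 41.8 and 64.0 TPM, with a median of 52.0. TRAF2 followed at 19.4 to 29.8 TPM (median 24.0), then TRAF3 at 7.61 to 13.5 TPM (median 10.6), TRAF5 at 4.65 to 8.13 TPM (median 6.11) and TRAF6 at 2.50 to 5.63 TPM (median 3.70). TRAF1 was lowest at 0.775 to 1.53 TPM (median 1.16). The order TRAF4, TRAF2, TRAF3, TRAF5, TRAF6, TRAF1 by group mean held in 14 of 20 groups, the 5 NS groups among them. In NS, neighbours in this order overlapped between libraries only for TRAF5 and TRAF6 at 1 h and for TRAF3 and TRAF5 at 24 h. With IL-1β at 2 h, TRAF1 stood just after TRAF3 by mean and its range overlapped that of TRAF3, and with IL-1β at 24 h and cotreatment at 6 h TRAF2 stood above TRAF4, with ranges that overlapped at 24 h and did not at 6 h.

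**Figure D1:**
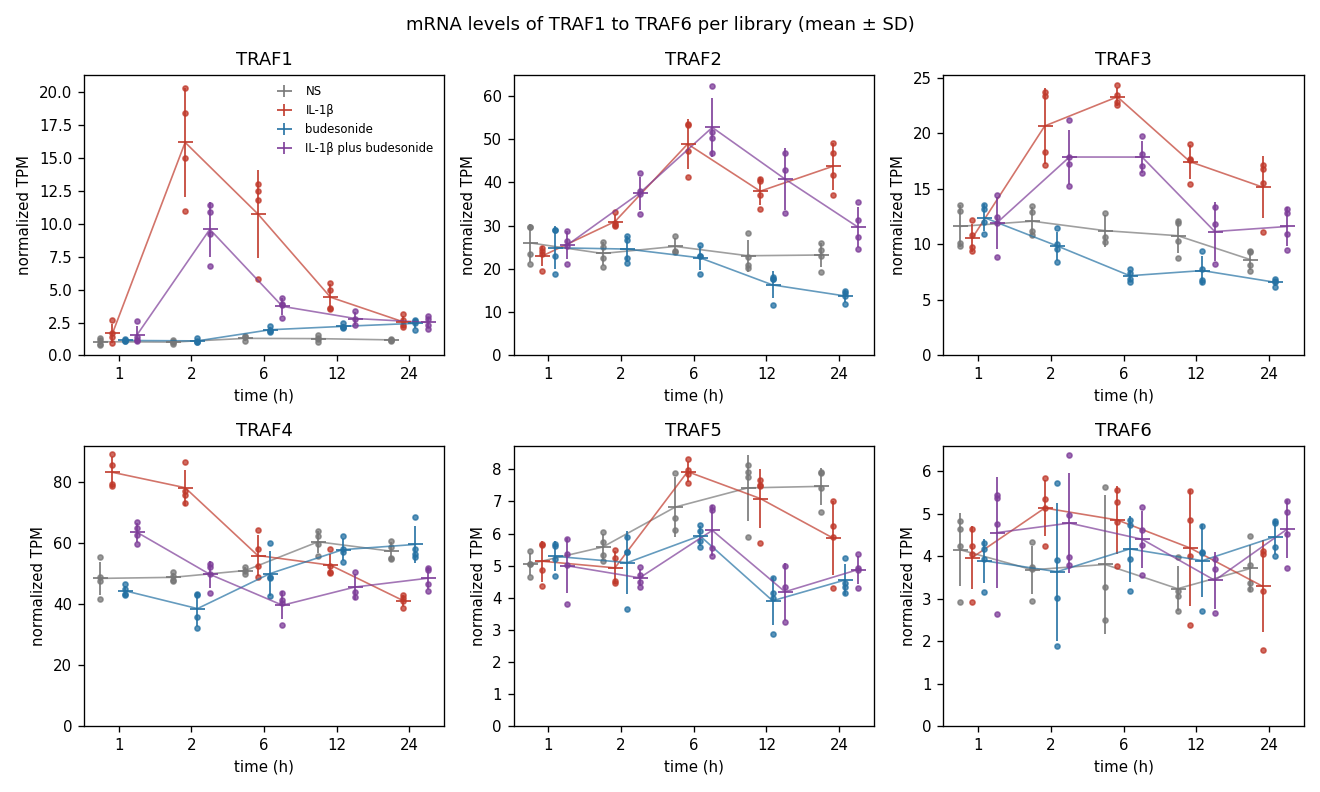
Normalized TPM of each TRAF gene (y axis) against time in h (x axis, equal spacing) in NS, IL-1β, budesonide and IL-1β-plus-budesonide. Points are libraries, and bars show the mean ± SD (n = 4, or 3 for NS at 6 h and cotreatment at 12 h). TRAF1 reaches 11.0 to 20.4 TPM with IL-1β at 2 h, while TRAF4 is highest with IL-1β at 1 h and TRAF2 and TRAF3 at 6 h with IL-1β or cotreatment.

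The summed level of the 6 genes rose and fell with IL-1β. It was 94.7 ± 3.86 TPM (SD, n = 4) in NS at 2 h, 156 ± 8.83 TPM with IL-1β (n = 4), 82.8 ± 7.59 TPM with budesonide (n = 4) and 124 ± 7.32 TPM with cotreatment (n = 4). At 24 h the sums were 102 ± 4.59, 112 ± 3.09, 91.3 ± 5.98 and 102 ± 7.83 TPM (n = 4 each). TRAF1 made up 1.08% ± 0.102 of the sum in NS at 2 h, 10.3% ± 2.20 with IL-1β and 7.70% ± 1.44 with cotreatment (n = 4 each). For each 100 TPM of TRAF2, to whose protein TRAF1 binds, there were 4.36 ± 0.624 TPM of TRAF1 in NS at 2 h and 52.1 ± 11.6 with IL-1β, against 5.84 ± 0.556 with IL-1β and 18.0 ± 3.52 with budesonide at 24 h (n = 4 each), the latter beside a lower TRAF2 level. These shares are descriptions with no test.

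**Figure D2:**
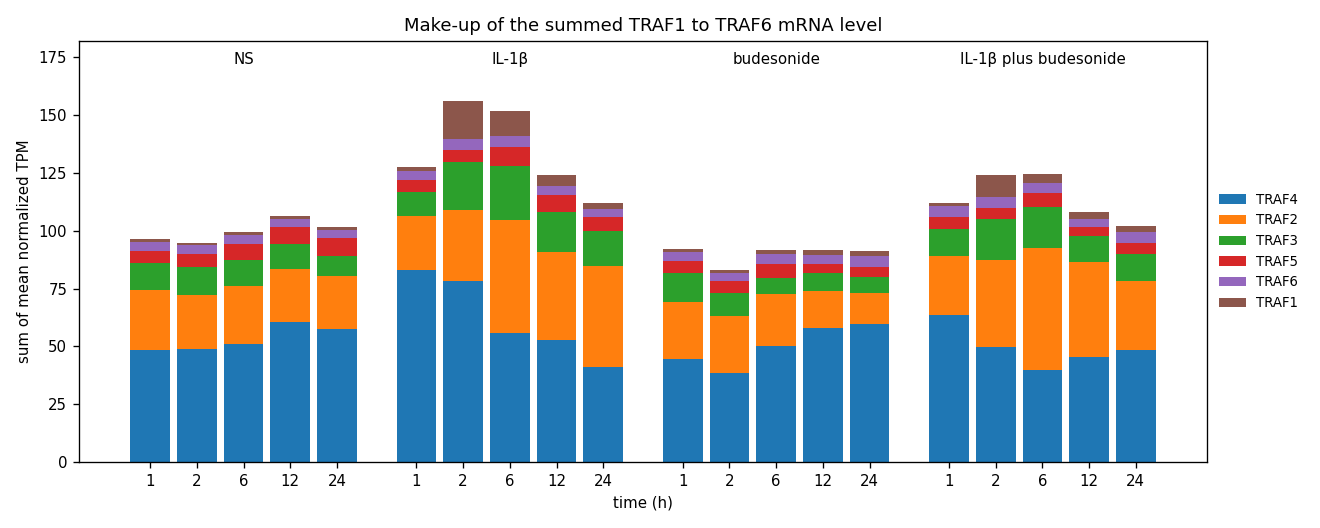
Sum of the mean normalized TPM of the 6 genes (y axis, stacked by gene) in each treatment at 1, 2, 6, 12 and 24 h (x axis). The sum with IL-1β is 156 TPM at 2 h, of which TRAF1 makes up 10.3%, and TRAF4 is the largest part in most groups.

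Each gene was then compared between treatments, with a gene said to have passed at an adjusted p of at most 0.05 over all 13327 genes, and the share of all tested genes that passed is given beside each count. With IL-1β against NS 1 of 6 members passed at 1 h (2.49% of all genes), 4 at 2 h (16.6%), 3 at 6 h (45.1%), 3 at 12 h (36.0%) plus 5 at 24 h (34.0%). With budesonide against NS 0 passed at 1 h (0.555%), 1 at 2 h (3.61%), 1 at 6 h (15.3%), 4 at 12 h (28.0%) plus 4 at 24 h (41.1%). With cotreatment against NS the counts were 1 at 1 h (2.51%), 3 at 2 h (14.5%), 4 at 6 h (29.6%), 4 at 12 h (30.0%) plus 5 at 24 h (38.0%). With cotreatment against IL-1β they were 1 at 1 h (0.900%), 2 at 2 h (5.70%), 4 at 6 h (30.6%), 3 at 12 h (33.5%) plus 3 at 24 h (33.2%). The interaction, which is the log2 departure of cotreatment from the IL-1β and budesonide changes added together, passed for 0 members at 1 h (0.135%) and 2 h (1.10%), 2 at 6 h (9.96%), 2 at 12 h (10.8%) plus 1 at 24 h (15.4%). The 3 of 6 members at 6 h with IL-1β thus lay near the share of all genes, whereas the 4 of 6 at 2 h lay above it. The 0 members for budesonide at 1 h and for the interaction at 1 h and 2 h are from limma, and at an unadjusted p under 0.05 there were 0, 1 and 2.

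On the log2(TPM + 0.5) scale, changes of at least 2-fold at 1 or more times were found for TRAF1 and TRAF3 with IL-1β (16.3% of all genes), for no member with budesonide (11.2%), for TRAF1 and TRAF2 with cotreatment (15.4%) and for TRAF1 with cotreatment against IL-1β (10.7%). TRAF1 with budesonide at 24 h was 0.80 on that scale, although the ratio of its untransformed means was 2.06. The pseudocount of 0.5 understates the change of a gene at about 1 TPM. In its own comparisons, the study counted TRAF1 among the genes that budesonide raised at least 2-fold. TRAF3 stood at 1.03 on the log2 scale with IL-1β at 6 h and TRAF2 at 1.04 with cotreatment at 6 h, just past the 2-fold line. With IL-1β, TRAF3 no longer reached 2-fold without NS library 2 (0.99, where TRAF2 did, so 2 members remained past it) or NS library 4 at 6 h (0.96, which left 1 member), and without IL-1β library 3 at 6 h TRAF2 also reached it, which made 3. With cotreatment, TRAF2 did not reach it without cotreatment library 1 at 6 h, which left 1 member. In bulk RNA, fewer cells of a kind and less mRNA per cell cannot be told apart.

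**Figure D3:**
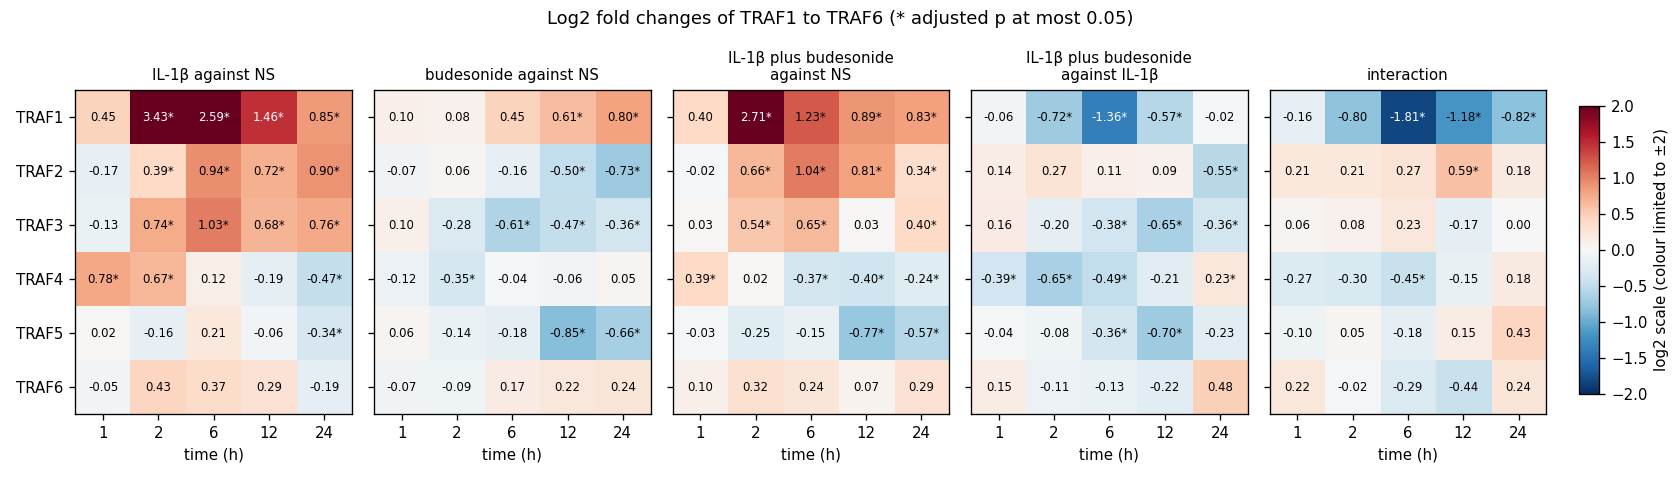
Log2 fold change (colour and number) of each TRAF gene (rows) at 1, 2, 6, 12 and 24 h (columns) in 4 comparisons and the interaction. An asterisk marks an adjusted p of at most 0.05. TRAF1 rises by 3.43 with IL-1β at 2 h, and TRAF6 has no asterisk.

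TRAF1, an adaptor that binds TRAF2 and the inhibitors of apoptosis encoded by BIRC2 and BIRC3, and is known as an NF-κB target, showed the largest response of the family. At 2 h the libraries 1 to 4 held 1.15, 0.990, 1.05 and 0.891 TPM in NS and 20.4, 18.4, 11.0 and 15.0 TPM with IL-1β. All IL-1β libraries lay far above all NS libraries, at 15.9 times the NS mean, a log2 change of 3.43 ± 0.19 (SE; adjusted p = 2.64e-24). At 6 h NS held 1.44, 1.38 and 1.08 TPM and IL-1β 13.0, 11.8, 5.78 and 12.5 TPM, a change of 2.59 ± 0.20 (adjusted p = 3.06e-17). Library 3 was the lowest of the IL-1β libraries at both times, and the groups did not overlap. The change was 1.46 ± 0.19 at 12 h (adjusted p = 2.52e-09) and 0.85 ± 0.19 at 24 h (adjusted p = 0.000188), again without overlap. At 1 h the groups overlapped, and the change of 0.45 (95% interval 0.08 to 0.83) had an adjusted p of 0.338. The IL-1β response was smaller at 24 h than at 2 h by −2.58 ± 0.27 on the log2 scale (adjusted p = 7.25e-12), a test that 21.5% of all genes passed.

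Budesonide alone raised TRAF1 late, by less than IL-1β up to 12 h and to a similar mean at 24 h (2.45 beside 2.56 TPM). In libraries 1 to 4 the level with budesonide at 24 h was 2.66, 2.68, 2.48 and 1.97 TPM, against 1.28, 1.13, 1.16 and 1.17 TPM in NS. The groups did not overlap, and the mean was 2.06 times that of NS (log2 change 0.80 ± 0.19, adjusted p = 0.000345). The change was 0.61 ± 0.19 at 12 h (adjusted p = 0.00886). At 6 h the 4 budesonide libraries (1.81 to 2.24 TPM) lay above the 3 NS libraries, with a change of 0.45 ± 0.20 that missed the threshold (adjusted p = 0.135) and passed with the library number as a block (adjusted p = 0.0109). The budesonide response was larger at 24 h than at 2 h by 0.72 ± 0.27 (adjusted p = 0.0386, a test that 24.5% of all genes passed). That call was lost, at an adjusted p of 0.0536 to 0.0701, on leaving out any 1 of 11 libraries (NS at 2 h library 1 or 3 and at 24 h library 2, 3 or 4, budesonide at 2 h library 1, 3 or 4 and at 24 h library 1, 2 or 3), with a pseudocount of 1 (adjusted p = 0.0543) and with no filter on low values (adjusted p = 0.0529).

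With IL-1β-plus-budesonide TRAF1 rose less than with IL-1β. At 6 h the cotreatment libraries held 3.84, 4.34, 2.85 and 3.89 TPM, all below the IL-1β libraries and above the NS libraries. This was 0.346 of the IL-1β mean (log2 change against IL-1β −1.36 ± 0.19, adjusted p = 1.65e-08) and 2.87 times the NS mean (log2 change 1.23 ± 0.20, adjusted p = 1.41e-06). At 2 h cotreatment gave 11.4, 10.9, 6.80 and 9.20 TPM, which overlapped IL-1β only because of IL-1β library 3, with a change of −0.72 ± 0.19 (adjusted p = 0.00844). At 12 h the change against IL-1β was −0.57 ± 0.20 (adjusted p = 0.0250). At 24 h IL-1β, budesonide and cotreatment stood at 2.56 ± 0.436, 2.45 ± 0.331 and 2.51 ± 0.438 TPM (SD, n = 4 each), and cotreatment differed from IL-1β by −0.02 (95% interval −0.40 to 0.35, adjusted p = 0.947). The call at 2 h was lost without IL-1β library 1 or 2 or cotreatment library 3 (adjusted p = 0.0521 to 0.0955), and the call at 12 h without IL-1β library 1 or 2 or cotreatment library 1 or 4 (adjusted p = 0.0506 to 0.114) and with quantile normalization (adjusted p = 0.0715).

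The TRAF1 level under cotreatment was below what both single changes would add up to. At 6 h adding the single changes in TPM gave 11.4 ± 1.69 TPM (SE) and multiplying the single folds gave 16.2 TPM, while 3.73 ± 0.314 TPM was measured. The sums in TPM are descriptions with no test, and the interaction tests departure from the product of the folds on the log2 scale. The interaction was −1.81 ± 0.28 at 6 h (adjusted p = 1.12e-06), −1.18 ± 0.28 at 12 h (adjusted p = 0.00190) and −0.82 ± 0.27 at 24 h (adjusted p = 0.0238). At 24 h the sum was 3.82 ± 0.276 TPM and the measured level 2.51 ± 0.219 TPM. At 2 h the interaction of −0.80 ± 0.27 missed the threshold (adjusted p = 0.212) and passed with the library number as a block (adjusted p = 0.0153). The call at 24 h was lost without IL-1β library 2 or cotreatment library 4 (adjusted p = 0.0618 to 0.0642), and without the 5 libraries that stood apart (adjusted p = 0.0500021, just above the threshold).

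**Figure D4:**
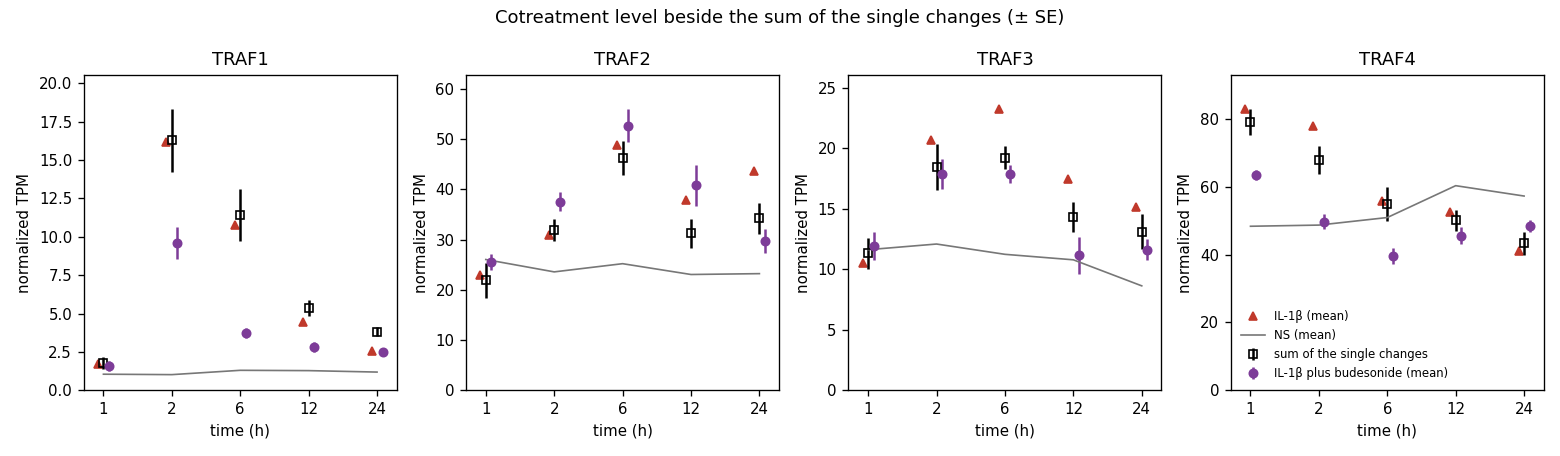
Mean normalized TPM (y axis) of TRAF1, TRAF2, TRAF3 and TRAF4 at each time in h (x axis) with NS, IL-1β and cotreatment, beside the NS mean plus the sum of both single changes. Error bars are SE (n = 4, or 3 for NS at 6 h and cotreatment at 12 h). For TRAF1 at 6 h the measured 3.73 TPM lies below the sum of 11.4 TPM, while for TRAF2 at 12 h the measured 40.8 TPM lies above the sum of 31.2 TPM.

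TRAF2, which recruits the cellular inhibitors of apoptosis to TNF receptors and to the TRAF3 complex, rose later with IL-1β and stayed raised. At 6 h it was 24.0, 27.6 and 24.0 TPM in NS (libraries 1, 2 and 4) and 53.2, 47.4, 41.3 and 53.6 TPM with IL-1β, without overlap and at 1.94 times the NS mean (log2 change 0.94 ± 0.15, adjusted p = 2.11e-07). At 24 h NS held 24.4, 26.1, 23.0 and 19.4 TPM and IL-1β 46.8, 49.2, 41.7 and 37.1 TPM, a change of 0.90 ± 0.13 (adjusted p = 1.22e-07). The change was 0.72 ± 0.13 at 12 h (adjusted p = 1.50e-05) and 0.39 ± 0.13 at 2 h (adjusted p = 0.0345), and at 1 h it was −0.17 ± 0.13 (adjusted p = 0.882). The call at 2 h was lost without IL-1β library 1, 2 or 4 or NS library 3 or 4 (adjusted p = 0.0574 to 0.147) and with quantile normalization (adjusted p = 0.0697). The response was 0.51 ± 0.19 larger at 24 h than at 2 h (adjusted p = 0.0472). That call was lost on leaving out any 1 of 11 libraries (NS at 2 h library 1, 2 or 4 and at 24 h library 3 or 4, IL-1β at 2 h library 2, 3 or 4 and at 24 h library 1, 2 or 3; adjusted p = 0.0528 to 0.125), with quantile normalization (adjusted p = 0.0511), with no filter on low values and without the 5 libraries that stood apart (adjusted p = 0.0615 and 0.0940).

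Budesonide alone lowered TRAF2 at late times. At 24 h the budesonide libraries held 14.4, 11.9, 15.0 and 13.7 TPM, all below the NS libraries, at 0.592 of the NS mean (log2 change −0.73 ± 0.13, adjusted p = 7.08e-06). At 12 h the change was −0.50 ± 0.13 (adjusted p = 0.00302), and library 4, at 11.6 TPM against 17.7 to 18.1 TPM in the others, was the lowest. The groups did not overlap, and the call was lost without that library (adjusted p = 0.0552). At 2 h the change was 0.06 ± 0.13 (adjusted p = 0.913). The budesonide response at 24 h was below that at 2 h by −0.79 ± 0.19 (adjusted p = 0.000940).

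TRAF2 was above NS with cotreatment as well. At 6 h it gave 62.3, 51.6, 50.1 and 46.7 TPM, 2.09 times the NS mean (log2 change 1.04 ± 0.15, adjusted p = 2.58e-08), and differed from IL-1β by 0.11 (95% interval −0.16 to 0.38, adjusted p = 0.606). At 2 h and 12 h it was above NS by 0.66 ± 0.13 (adjusted p = 0.000137) and 0.81 ± 0.15 (adjusted p = 9.05e-06). At 24 h the cotreatment libraries held 35.5, 31.2, 27.4 and 24.7 TPM, all below IL-1β, with a change of −0.55 ± 0.13 against IL-1β (adjusted p = 0.000748). Against NS the change was then 0.34 ± 0.13 (adjusted p = 0.0367), the groups overlapped, and the call was lost without cotreatment library 1 or 2 or NS library 3 or 4 (adjusted p = 0.0637 to 0.173). At 12 h the interaction was 0.59 ± 0.20 (adjusted p = 0.0438), the only positive interaction among members that passed. It was lost without any 1 of 7 libraries at 12 h (NS library 2 or 3, IL-1β library 2 or 3, budesonide library 4, cotreatment library 1 or 2; adjusted p = 0.0591 to 0.1703), and in 5 other alternatives (adjusted p = 0.0581 to 0.225): no filter on low values, median-of-ratios rescaling, quantile normalization, a fit of 1 time only, and leaving out the 5 libraries that stood apart.

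TRAF3, which with TRAF2 and the inhibitors of apoptosis marks the kinase NIK (MAP3K14) for degradation and so restrains the noncanonical NF-κB pathway, rose with IL-1β from 2 h on. At 6 h NS held 12.9, 10.6 and 10.2 TPM (libraries 1, 2 and 4) and IL-1β 24.4, 23.4, 22.8 and 22.5 TPM. The groups lay far apart, at 2.07 times the NS mean (log2 change 1.03 ± 0.14, adjusted p = 1.97e-08). The change was 0.74 ± 0.13 at 2 h (adjusted p = 1.52e-05), 0.68 ± 0.13 at 12 h (adjusted p = 3.66e-05) and 0.76 ± 0.13 at 24 h (adjusted p = 3.82e-06), each without overlap. At 24 h IL-1β library 2, at 11.1 TPM, was the lowest of its group (the others 15.5 to 17.2 TPM) and is among the 5 that stood apart. The response at 24 h differed from that at 2 h by 0.02 (95% interval −0.36 to 0.40, adjusted p = 0.952).

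Budesonide lowered TRAF3 from 6 h on. At 6 h it held 7.78, 7.44, 6.92 and 6.57 TPM, all below NS, at 0.639 of the NS mean (log2 change −0.61 ± 0.14, adjusted p = 0.00119). The change was −0.47 ± 0.13 at 12 h (adjusted p = 0.00455), where the groups overlapped, and −0.36 ± 0.13 at 24 h (adjusted p = 0.0251). At 12 h the call was lost in a fit of that time only (adjusted p = 0.0523), and at 24 h without NS library 1 or 2 or budesonide library 1 (adjusted p = 0.0676 to 0.0786). With cotreatment the mean of TRAF3 lay between those of IL-1β and NS from 2 h to 24 h. At 6 h it was 16.5, 18.2, 19.7 and 17.1 TPM, below all IL-1β and above all NS libraries (log2 change −0.38 ± 0.13 against IL-1β, adjusted p = 0.0259; 0.65 ± 0.14 against NS, adjusted p = 0.000274). At 2 h it exceeded NS by 0.54 ± 0.13 (adjusted p = 0.00204). At 12 h it held 13.4, 8.25 and 11.8 TPM (libraries 1, 2 and 4), −0.65 ± 0.14 against IL-1β (adjusted p = 0.000298) and 0.03 against NS (95% interval −0.26 to 0.32, adjusted p = 0.899). At 24 h the changes were −0.36 ± 0.13 against IL-1β (adjusted p = 0.0299) and 0.40 ± 0.13 against NS (adjusted p = 0.0130).

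Several of these TRAF3 calls were near the threshold and were lost on leaving out any 1 of several libraries. Against IL-1β the call at 6 h was lost without IL-1β library 1 or cotreatment library 1 or 4 (adjusted p = 0.0606 to 0.0761). At 24 h it was lost without IL-1β library 1, 3 or 4 or cotreatment library 2 or 4 (adjusted p = 0.0662 to 0.153) and in a fit of that time only (adjusted p = 0.0584). The call against NS at 24 h was lost without cotreatment library 1 or 3 or NS library 4 (adjusted p = 0.0520 to 0.0608). The TRAF3 interaction lay between −0.17 and 0.23 and passed at no time (adjusted p = 0.582 to 1.00 in limma, unadjusted p under 0.05 at 0 of 5 times). The measured cotreatment level at 6 h was 17.9 ± 0.721 TPM (SE), beside 19.2 ± 0.960 TPM from the sum of the single changes.

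TRAF4, a member first described in carcinoma cells and known for roles in cell polarity and migration, was the earliest to respond. At 1 h NS held 47.6, 41.8, 48.9 and 55.3 TPM and IL-1β 89.0, 79.1, 85.6 and 78.7 TPM. The groups did not overlap, and TRAF4 was the single member past the threshold at that time, at 1.72 times the NS mean (log2 change 0.78 ± 0.09, adjusted p = 1.60e-10). At 2 h the change was 0.67 ± 0.09 (adjusted p = 5.58e-09), and at 6 h the groups overlapped (0.12 ± 0.09, adjusted p = 0.295). At 24 h the direction was the opposite, with 38.7, 42.1, 40.8 and 42.9 TPM with IL-1β against 60.7, 54.7, 55.1 and 58.7 TPM in NS, again without overlap and at 0.718 of the NS mean (−0.47 ± 0.09, adjusted p = 1.03e-05). The difference between the 24 h and 2 h responses was −1.14 ± 0.12 (adjusted p = 3.68e-11). At 12 h the change of −0.19 ± 0.09 missed the threshold (adjusted p = 0.0766). It passed with the library number as a block (adjusted p = 0.00959), with quantile normalization (adjusted p = 0.00464) and without NS library 2 or IL-1β library 4 (adjusted p = 0.0419 at the lowest).

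TRAF4 was lower with cotreatment than with IL-1β from 1 h to 6 h and higher at 24 h. At 2 h cotreatment gave 52.2, 43.6, 50.0 and 53.2 TPM, all below the IL-1β libraries (73.0 to 86.6 TPM), with a change against IL-1β of −0.65 ± 0.09 (adjusted p = 4.86e-08) and against NS of 0.02 (95% interval −0.15 to 0.20, adjusted p = 0.936). At 1 h cotreatment gave 65.0, 59.6, 62.4 and 66.8 TPM, between IL-1β and NS without overlap on either side (−0.39 ± 0.09 against IL-1β, adjusted p = 0.00694; 0.39 ± 0.09 against NS, adjusted p = 0.00192). At 6 h it held 41.3, 33.1, 43.6 and 40.5 TPM, below both IL-1β (−0.49 ± 0.09, adjusted p = 6.39e-06) and NS (−0.37 ± 0.09, adjusted p = 0.00166). At 12 h it was below NS by −0.40 ± 0.09 (adjusted p = 0.000531) and differed from IL-1β by −0.21 ± 0.09, which missed the threshold (adjusted p = 0.0796) and passed with the library number as a block (adjusted p = 0.00952) and without cotreatment library 4 (adjusted p = 0.0309). At 24 h it lay above IL-1β (0.23 ± 0.09, adjusted p = 0.0338) and below NS (−0.24 ± 0.09, adjusted p = 0.0228), with no overlap on either side.

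Budesonide alone lowered TRAF4 at 2 h only, from 50.4, 47.6, 48.0 and 49.0 TPM in NS to 43.0, 32.0, 35.7 and 43.3 TPM (−0.35 ± 0.09, adjusted p = 0.00750). The groups did not overlap, and budesonide library 2 was the lowest. The call was lost without it (adjusted p = 0.119) and in a fit of that time only (adjusted p = 0.0664). The budesonide response was 0.40 ± 0.12 higher at 24 h than at 2 h (adjusted p = 0.0120). The TRAF4 interaction passed at 6 h (−0.45 ± 0.13, adjusted p = 0.0129). There the sum of the single changes was 54.9 ± 4.97 TPM (SE) and the measured level 39.6 ± 2.27 TPM, a description with no test. The interaction call was lost without IL-1β library 4, budesonide library 4 or cotreatment library 2 (adjusted p = 0.0511 to 0.0609), with quantile normalization (adjusted p = 0.0548) and in a fit of that time only (adjusted p = 0.0688). The 24 h to 2 h difference was lost without budesonide library 2 at 2 h or library 4 at 24 h (adjusted p = 0.0516 to 0.0579). Against IL-1β the 1 h call was lost without IL-1β library 1 or cotreatment library 2 (adjusted p = 0.0516 to 0.0599), and the 24 h call without IL-1β library 1 or 3 or cotreatment library 1 or 4 (adjusted p = 0.0608 to 0.109). Against NS the 24 h call was lost without NS library 1 or 4 or cotreatment library 2 or 3 (adjusted p = 0.0523 to 0.0914) and with median-of-ratios rescaling (adjusted p = 0.0601).

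TRAF5, a close relative of TRAF2 that acts at CD40 and other TNF receptors, fell with budesonide at late times. At 12 h NS held 7.77, 5.88, 7.90 and 8.13 TPM and budesonide 4.61, 2.86, 4.00 and 4.16 TPM. The groups did not overlap, library 2 was the lowest in both (the budesonide one is among the 5 that stood apart), and the budesonide mean was 0.526 of NS (log2 change −0.85 ± 0.13, adjusted p = 1.02e-07). At 24 h NS held 7.42, 7.89, 6.66 and 7.91 TPM and budesonide 4.47, 5.25, 4.35 and 4.15 TPM (−0.66 ± 0.13, adjusted p = 1.38e-05). Cotreatment was likewise below NS at 12 h (4.32, 3.23 and 5.00 TPM in libraries 1, 2 and 4, −0.77 ± 0.14, adjusted p = 6.38e-06) and at 24 h (−0.57 ± 0.13, adjusted p = 0.000153). Against IL-1β cotreatment changed TRAF5 by −0.70 ± 0.14 at 12 h (adjusted p = 2.82e-05) and −0.36 ± 0.13 at 6 h (adjusted p = 0.0224). The call at 6 h was lost without IL-1β library 1 or cotreatment library 1 or 3 (adjusted p = 0.0571 to 0.0932). The budesonide response at 24 h was below that at 2 h by −0.52 ± 0.18 (adjusted p = 0.0228), a call lost without budesonide library 2 at 2 h or library 4 at 24 h (adjusted p = 0.0519 to 0.0660).

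IL-1β changed TRAF5 past the threshold at 24 h only, where it held 7.01, 4.31, 5.88 and 6.25 TPM and overlapped NS (−0.34 ± 0.13, adjusted p = 0.0287). That call was lost without IL-1β library 2, which stood apart (adjusted p = 0.232), without NS library 2 or 4 (adjusted p = 0.0725 at the lowest), without all 5 libraries that stood apart (adjusted p = 0.0969), with quantile normalization (adjusted p = 0.0562) and in a fit of that time only (adjusted p = 0.0591). At 6 h the change of 0.21 (adjusted p = 0.212) passed with quantile normalization (adjusted p = 0.00761). At 24 h cotreatment differed from IL-1β by −0.23 ± 0.13 (adjusted p = 0.164), which passed without IL-1β library 2 (adjusted p = 0.0277), without the 5 libraries that stood apart (adjusted p = 0.00355) and with quantile normalization (adjusted p = 0.0203). The interaction at 24 h, 0.43 ± 0.18 (adjusted p = 0.0954), passed without IL-1β library 1 (adjusted p = 0.0410). TRAF5 was also the member that moved in the controls. In NS it rose from 5.06, 5.04, 4.65 and 5.47 TPM at 1 h to the 24 h levels above (0.52 ± 0.13, adjusted p = 0.00486), a test that 5.94% of all genes passed. TRAF3 and TRAF4 moved by −0.40 ± 0.13 (adjusted p = 0.0621) and 0.25 ± 0.09 (adjusted p = 0.0826) in NS over the same time. TRAF3 passed without NS library 3 or 4 at 1 h (adjusted p = 0.0368 to 0.0487) and, at an adjusted p of 0.00590 to 0.0294, without the 5 libraries that stood apart, with the library number as a block, and with median-of-ratios or quantile scaling, and TRAF4 without NS library 4 at 1 h (adjusted p = 0.0319) with quantile normalization (adjusted p = 0.0305) and with the block (adjusted p = 0.00401).

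TRAF6, the ubiquitin ligase through which the IL-1 receptor complex signals, did not pass in any comparison. Its lowest, median and highest levels were 2.50, 3.70 and 5.63 TPM in NS, 1.81, 4.24 and 5.83 TPM with IL-1β, 1.89, 4.08 and 5.73 TPM with budesonide and 2.64, 4.52 and 6.37 TPM with cotreatment. The groups overlapped at every time. The widest departure from NS was 0.43 with IL-1β at 2 h (95% interval −0.01 to 0.87, adjusted p = 0.195). With IL-1β at 6 h the change of 0.37 (95% interval −0.11 to 0.84, adjusted p = 0.210) passed without NS library 2 (adjusted p = 0.0384) and with quantile normalization (adjusted p = 0.0324). At 24 h cotreatment stood 0.48 above IL-1β (95% interval 0.04 to 0.92, adjusted p = 0.0848), which passed without IL-1β library 1 or 4 (adjusted p = 0.0460 to 0.0492) and with quantile normalization (adjusted p = 0.0334). Its IL-1β response differed by −0.63 between 24 h and 2 h (95% interval −1.25 to −0.01, adjusted p = 0.150). The intervals of TRAF6 were the widest of the 6 genes, with an SE of 0.22 where both groups held 4 libraries, against 0.19 for TRAF1 and 0.09 for TRAF4.

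Over the 20 group means of the log2 level, TRAF2 and TRAF3 ran most closely together (r = 0.83), followed by TRAF1 and TRAF3 (r = 0.70) and TRAF1 and TRAF6 (r = 0.67), while TRAF2 and TRAF4 had the lowest value (r = −0.36). Each point is the mean of 3 or 4 libraries of its own, all normalized together, and these values are descriptions with no test. The genes whose pattern was most like that of TRAF1 were NFKB1, which encodes an NF-κB subunit (r = 0.957), ETS1 (r = 0.949), SMURF2 (r = 0.947), MOB3C (r = 0.942) and BIRC2 (r = 0.935). Those most like TRAF2 were GPX3, BID and PIEZO1 (r = 0.939 to 0.946), and those most like TRAF3 were DRAM1, RAP2B and IFNAR2 (r = 0.934 to 0.953). For TRAF4 they were SERTAD2, SOWAHB and BBC3 (r = 0.765 to 0.809), for TRAF5 MSANTD2, TERF2 and ANKRD52 (r = 0.866 to 0.871) and for TRAF6 NMD3, RUFY2 and VPS26A (r = 0.808 to 0.834).

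The genes that work with the TRAFs were described as 6 lists with 97 genes, of which 86 were tested, on changes averaged over the 5 times. With IL-1β 43 were higher and 16 lower, 50% and 18.6% of those tested, beside 22.4% and 34.1% of all genes. With budesonide 14 were higher and 19 lower, beside 18.9% and 23.7% of all genes, and with cotreatment against IL-1β 18 were higher and 33 lower, beside 22.4% and 24.3%. No test of the lists was made, and these same shares of all genes stand beside the counts of each list below.

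Among 19 tested receptors that signal through TRAFs, 8 rose, 4 fell and 7 did not pass with IL-1β (median 0.07, against −0.05 for all genes). TNFRSF9, which encodes the TRAF1-binding and TRAF2-binding receptor 4-1BB, rose by 3.27 ± 0.09 (SE, log2), CD40 rose by 1.45 ± 0.05 and TNFRSF19 fell by 0.34 ± 0.08. With cotreatment relative to IL-1β 4 rose, 8 fell and 7 did not pass, TNFRSF9 fell by 1.48 ± 0.09 and CD40 fell by 0.47 ± 0.05. IL17RC, a subunit of the IL-17 receptor, rose by 0.84 ± 0.05 with budesonide. Of 12 receptor-proximal adaptors and kinases, 6 rose, 3 fell and 3 did not pass with IL-1β. IRAK2, a kinase of the IL-1 receptor complex upstream of TRAF6, rose by 3.11 ± 0.05, TICAM1, the Toll-like receptor adaptor TRIF, rose by 0.91 ± 0.04 and IRAK4 fell by 0.19 ± 0.07 (adjusted p = 0.0282). IRAK3, an inhibitor of that complex, rose by 1.17 ± 0.08 with budesonide and by 1.99 ± 0.08 with cotreatment relative to IL-1β, whereas IRAK2 then fell by 0.72 ± 0.05, and over this list 2 rose, 4 fell and 6 did not pass.

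Of 15 kinases downstream of TRAFs, 8 rose, 3 fell and 4 did not pass with IL-1β (median 0.22), and with budesonide 0 rose, 6 fell and 9 did not pass. MAP3K8, which encodes the kinase TPL2, rose by 1.98 ± 0.05 with IL-1β and fell by 0.57 ± 0.05 with budesonide, IKBKE rose by 1.78 ± 0.06 with IL-1β and MAP4K2 fell by 0.54 ± 0.07. With cotreatment relative to IL-1β 2 of these kinases rose, 8 fell and 5 did not pass, and MAP3K8 fell by 0.99 ± 0.05. Of 15 ubiquitin ligases and conjugating enzymes 8 rose, 3 fell and 4 did not pass with IL-1β. BIRC3 rose by 3.77 ± 0.08 with IL-1β and by 1.92 ± 0.08 with budesonide, BIRC2 rose by 1.02 ± 0.06 with IL-1β and PELI3 fell by 0.28 ± 0.07. Relative to IL-1β, 4 of this list rose, 7 fell and 4 did not pass with cotreatment, BIRC3 rose by 0.22 ± 0.08 (adjusted p = 0.0131) and BIRC2 fell by 0.50 ± 0.06. Both encode inhibitors of apoptosis that bind TRAF2 and TRAF1.

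Of 16 deubiquitinases and feedback inhibitors 8 rose, 1 fell and 7 did not pass with IL-1β, and 5 rose, 1 fell and 10 did not pass with budesonide. With cotreatment relative to IL-1β 4 rose, 2 fell and 10 did not pass, where 22.4% of all genes were higher and 24.3% lower. TNFAIP3, which encodes the ubiquitin-editing inhibitor A20, rose by 5.39 ± 0.11 with IL-1β, ZC3H12A, the RNase Regnase-1, rose by 3.41 ± 0.08 with IL-1β and by 1.58 ± 0.08 with budesonide, and NLRX1 fell by 0.49 ± 0.06 with IL-1β. Of 9 tested relatives and binding proteins 5 rose, 2 fell and 2 did not pass with IL-1β, and 2 rose, 4 fell and 3 did not pass with cotreatment relative to IL-1β. TANK, a TRAF-binding regulator of kinases of the TBK1 type, rose by 0.62 ± 0.05, TDP2 rose by 0.51 ± 0.06 and TRAIP, a RING ligase, fell by 0.45 ± 0.07 with IL-1β and by 0.65 ± 0.07 with budesonide. Among changes given here without an adjusted p, the highest was that of TNFRSF19 (adjusted p = 0.000289).

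**Figure D5:**
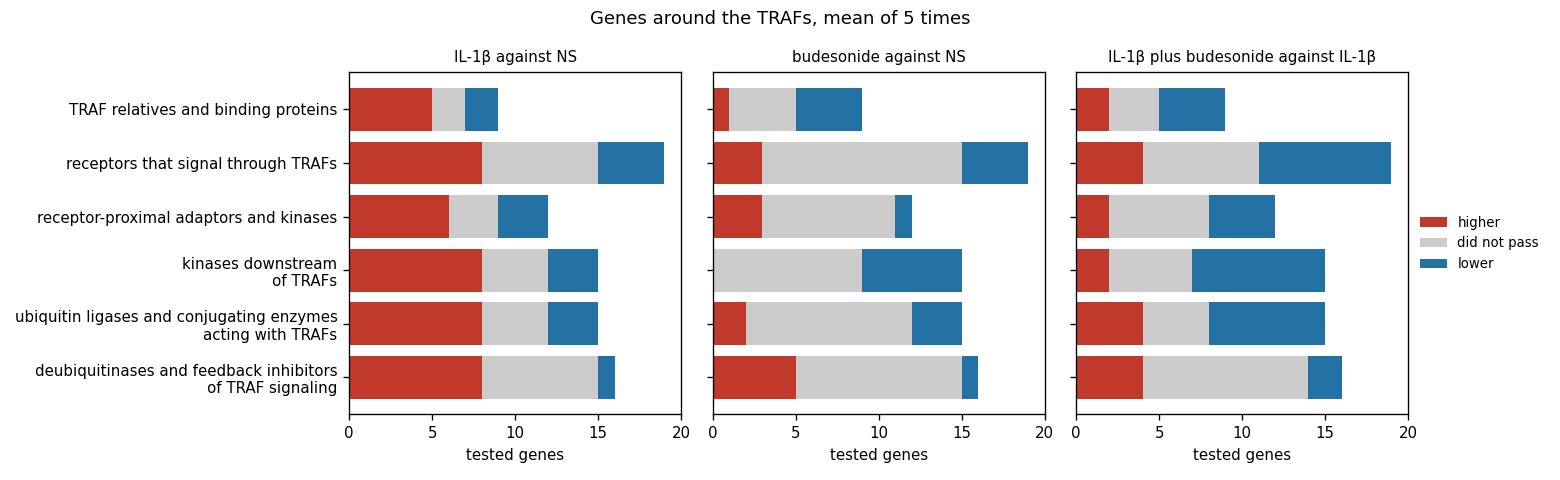
Number of tested genes (x axis) that were higher (red), lower (blue) or did not pass (grey) in 6 lists of genes around the TRAFs (y axis), for 3 comparisons averaged over 5 times. With IL-1β 43 of 86 genes are higher, and with cotreatment against IL-1β 33 of 86 are lower.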

How the data were processed

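RNA from A549 cells was sequenced after poly(A) selection with a stranded kit. The authors estimated transcript abundance with kallisto on GRCh38 and normalized it with sleuth (versions not given in the sources used here). The deposited values, named normalized TPM, are treated as a signal: per library they summed to at least 812680, with a median of 857447, so the sum is not fixed as in unscaled TPM, and they hold no counts, and sequencing depth is unknown. The deposited table of the authors' comparisons (log2 fold changes, false discovery rates and directions) was not used. In the table of levels, 1 library without a label was not used.

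Values were tested as log2(TPM + 0.5) with limma 3.58.1 in R 4.3.3, with 1 mean per group, a trend in the variance and 58 residual degrees of freedom from all 78 libraries. A fold change is thus on the log2(TPM + 0.5) scale, which understates the change of low genes such as TRAF1. Genes needed at least 1 TPM in at least 3 libraries, which removed 6325 genes, and p-values were adjusted by Benjamini-Hochberg over 13327 genes. The fit was also run on simulated data, with noise drawn independently for each library. That run does not cover the shared deviations of same-numbered libraries described below. Ratios of means are of untransformed TPM. No pair of libraries was identical (0 pairs). Figures were drawn with Python 3.11.15, pandas 2.3.3 and matplotlib 3.10.9.

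The members and gene lists were chosen with earlier results of these data known. Besides the members, the text names from each list the 2 highest and the 1 lowest change with IL-1β among genes that passed and the 1 with the largest absolute change with budesonide, and the genes with the highest Pearson r to a member over the 20 group means (5 for TRAF1, 3 for each other member).

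Same-numbered libraries of different treatments at 1 time deviated from their group means together (median r = 0.266 over 114 pairs, range −0.119 to 0.828, against a median of −0.0939 for other numbers). In 27 of 30 pairs of groups every r was over 0.1. The exceptions were IL-1β and cotreatment at 1 h (lowest r = −0.119), NS and cotreatment at 1 h (0.0994) and NS and cotreatment at 6 h (0.0793). When 1 library was compared with those of another treatment at the same time, its highest r was with its own number in 96.6% of cases. The labels do not say what the numbers mark, so the block was an alternative. The p-values of the main fit thus treat same-numbered libraries as independent, although they deviated together. Alternatives were other pseudocounts, filters and scalings, the library number as a block, no variance trend, a fit of 1 time only, and leaving out each library or the 5 that stood apart.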

Additional observations from a re-analysis of the deposited data

Results flagged for a closer look

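Each member was checked in each group of 4 libraries, which made 108 sets of values that share libraries and are not independent. In 4 of these sets 1 library lay farther from the others than Dixon's 95% critical value allows, and chance alone flags about 1 set in 20. TRAF1 with IL-1β at 6 h was 5.78 TPM in library 3, against 11.8 to 13.0 TPM in the others. TRAF2 with budesonide at 12 h was 11.6 TPM in library 4, against 17.7 to 18.1 TPM. TRAF5 at 12 h was 5.88 TPM in NS library 2, against 7.77 to 8.13 TPM, and 5.70 TPM in IL-1β library 2, against 7.48 to 7.67 TPM.

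The response differed between 24 h and 2 h in a test of the difference itself (limma, log2 scale) for 3 of 6 members with IL-1β (21.5% of all genes) and 4 of 6 with budesonide (24.5% of all genes). With IL-1β the difference was −2.58 for TRAF1 (adjusted p = 7.25e-12), 0.51 for TRAF2 (adjusted p = 0.0472) and −1.14 for TRAF4 (adjusted p = 3.68e-11). With budesonide it was 0.72 for TRAF1 (adjusted p = 0.0386), −0.79 for TRAF2 (adjusted p = 0.000940), 0.40 for TRAF4 (adjusted p = 0.0120) and −0.52 for TRAF5 (adjusted p = 0.0228).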

How the results depend on the processing

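Over 6 members and all tests by time, 69 of 168 tests passed, 46 of them under every alternative in which they could be tested (a fit of 1 time has no test between times, and the filter at a mean of 5 TPM leaves out TRAF1 and TRAF6), and 0 changed direction. Leaving out 1 library (78 settings) lost 22 calls and gained 8. Quantile normalization lost 6 and gained 7, a fit of 1 time only lost 6, leaving out the 5 libraries that stood apart lost 4 and gained 2, no filter on low values lost 3, median-of-ratios rescaling lost 2 and gained 1, and a pseudocount of 1 lost 1. A pseudocount of 0.1, a filter at a mean of 5 TPM (for the members still tested) and a fit without the variance trend lost 0 and gained 0. With the library number as a replicate block, a pairing that the labels do not explain, 0 calls were lost and 6 gained, and the calls were 17 with IL-1β, 11 with budesonide, 17 and 14 with cotreatment against NS and IL-1β, 6 for the interaction, 7 for the change with time and 3 in NS over time. Without the block they were 16, 10, 17, 13, 5, 7 and 1. The interaction had 2 calls with the filter at a mean of 5 TPM, and 3 with quantile normalization, with a fit of 1 time only and without the 5 libraries. The change in NS had 2 calls with median-of-ratios rescaling and without the 5 libraries, 3 with quantile normalization, and 1 to 3 on leaving out 1 library (2 without NS library 3 and 3 without NS library 4 at 1 h). Members changed at least 2-fold with IL-1β numbered 1 with a pseudocount of 1 and with the filter at a mean of 5 TPM, and 1 to 3 on leaving out 1 library. With cotreatment against NS they numbered 1 with that filter and 1 to 2 on leaving out 1 library, and against IL-1β 0 with that filter, where TRAF1 was not tested. Where no construction is named, the cause was not tested. Depth is unknown, so counting error at the low levels of TRAF1 and TRAF6 could not be given.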
